A study of Mus musculus with 40 samples.

Results

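SynapTRAP (ST) captures tagged ribosomes, with their mRNA, from a synaptoneurosome fraction. Here it was compared between a line that targets layer 5 pyramidal neurons and a line that targets GABAergic neurons. The 5 ST libraries of mice labelled Rbp4 TRAP, here RBP4-TRAP, were set against the 5 ST libraries of mice labelled Vgat TRAP, here VGAT-TRAP, or 10 of the 40 libraries of the series. In both lines a Cre-dependent reporter in the ROSA26 locus encodes EGFP fused to the ribosomal protein L10a. The reporter is switched on by the transgene Rbp4-cre KL100, which targets layer 5 pyramidal neurons, or by Cre at the Slc32a1 locus, which targets any neuron that expresses the vesicular GABA transporter VGAT. Each library of a fraction came from a different pool of forebrains, with both sexes used where they were at hand, at 21 d after birth, with no treatment in either line. The labels name the tissue as cortex, but the methods describe forebrain dissection, and the striatum holds GABAergic projection neurons. Of 41388 genes in the files, 41351 lie off the mitochondrial chromosome, and 16900 of these were tested. The other fractions of the same pools are whole-cell homogenate (WCH), ribosomes captured from it (TRAP) and the untagged synaptoneurosome fraction (SNF), on which ST is a second capture.

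In TRAP, ribosomes that carry EGFP are pulled down with antibodies, which is meant to yield mRNA mainly from cells with Cre. Synaptoneurosomes are pinched-off and resealed pieces of presynaptic and postsynaptic membrane, with mitochondria and ribosomes inside. Layer 5 pyramidal neurons are glutamatergic cells whose long axons leave the cortex, while GABAergic neurons comprise local interneurons and striatal projection neurons, many of which store neuropeptides in dense-core vesicles. Neuropeptides are made as precursors on the endoplasmic reticulum, packed in the Golgi apparatus and cleaved on the way to the release site. In a bulk capture of this kind, fewer cells of a type and less RNA per cell cannot be told apart.

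Between 14259535 and 22007698 reads were counted per ST library, of which 2.71% to 18.97% fell on mitochondrial genes. Among the ST libraries of each line, replicate 3 had the largest mitochondrial share, with 15.8% in RBP4 and 18.97% in VGAT. After mitochondrial genes had been left out, 1 count equalled between 0.0470 and 0.0847 cpm, where 1 cpm is 1 count in 1000000. Over the 5000 genes with most counts, the ST libraries did not group by line. Spearman's rho between ST libraries had a median of 0.850 within RBP4, 0.913 within VGAT and 0.885 between the lines, and the nearest library of each RBP4 ST library was a VGAT ST library. The library labelled RBP4 ST replicate 4 stood closest to the other line, with a rho of 0.973 to VGAT ST replicate 1. Results are therefore also given without the pool of RBP4 replicate 4, and without both pools numbered 3.

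The targeted cells were checked with the gene that drives Cre in the VGAT line. Slc32a1 (chromosome 2, 158610767 to 158615748 in GRCm38) averaged 2.88 cpm in RBP4 and 58.4 cpm in VGAT after TRAP. In ST it was 19.7, 16.7, 10.9, 49.9 and 14.2 cpm in RBP4 replicates 1 to 5 and 40.9, 45.5, 23.3, 46.6 and 51.3 cpm in VGAT replicates 1 to 5. RBP4 replicate 4 thus lay among the VGAT libraries, and VGAT replicate 3 was the lowest of its line. The same RBP4 library had 172 cpm of Npy, 161 cpm of Sst and 45.3 cpm of Vip, below every VGAT ST library. Whether it was mislabelled or holds RNA of other cells was not tested. Rbp4 itself, which encodes a retinol carrier and lends its promoter to the other Cre transgene, had a TRAP mean of 21.4 cpm in RBP4 and 116 cpm in VGAT. In ST it was 20.3 and 46.5 cpm, a log2 fold change of -1.19 (edgeR adjusted p = 0.0666), which DESeq2 called higher in VGAT, so that Rbp4 mRNA itself does not mark the RBP4 line. Here and throughout, log2 fold changes are RBP4 over VGAT, so that negative values mean higher in VGAT.

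Of the genes tested, 55 (0.325%) passed an adjusted p of 0.05 between the lines in ST, of which 45 were higher in VGAT (0.266%) and 10 in RBP4 (0.0592%). They are the called genes in what follows, by the quasi-likelihood test of edgeR after Benjamini-Hochberg adjustment, fitted to the 30 WCH, TRAP and ST libraries. An unadjusted p under 0.05 was reached by 1937 genes (11.5%), 1438 (8.51%) higher in VGAT and 499 (2.95%) in RBP4. Every VGAT ST library was above every RBP4 ST library for 206 genes (1.22%), and the reverse held for 22 (0.13%). Among the 55 called genes, 30 of the 45 higher in VGAT and 7 of the 10 higher in RBP4 separated the lines in this way. Over all genes tested the median log2 fold change was -0.085 in ST. With TMM factors this median moved to 0.04, and the calls became 28 higher in VGAT and 15 in RBP4. DESeq2 called 61 and 77.

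The number of genes called in ST depended on which libraries set the spread. The common biological coefficient of variation was 0.374 among the 10 ST libraries, 0.290 among the TRAP and 0.198 among the WCH libraries. With only the 10 ST libraries in the edgeR fit, 0 genes passed, 904 (5.35%) had an unadjusted p under 0.05, and the smallest adjusted p was 0.0588. All 55 called genes were among those 904, which rest on the same ST counts as the calls and are no independent support. Without the pool of RBP4 replicate 4, 138 genes were higher in VGAT and 23 in RBP4, and 52 of the 55 were still called. Without both pools numbered 3 the calls were 9 and 2. Leaving out VGAT replicate 5 left 7 genes, which were Crhbp, Npy, Crh, Cort, Kcnc1, Gm4737 and Wdfy1, and leaving out VGAT replicate 4 left 15. These 7 genes passed in each of the 10 fits that left out 1 pool.

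**Figure D1:**
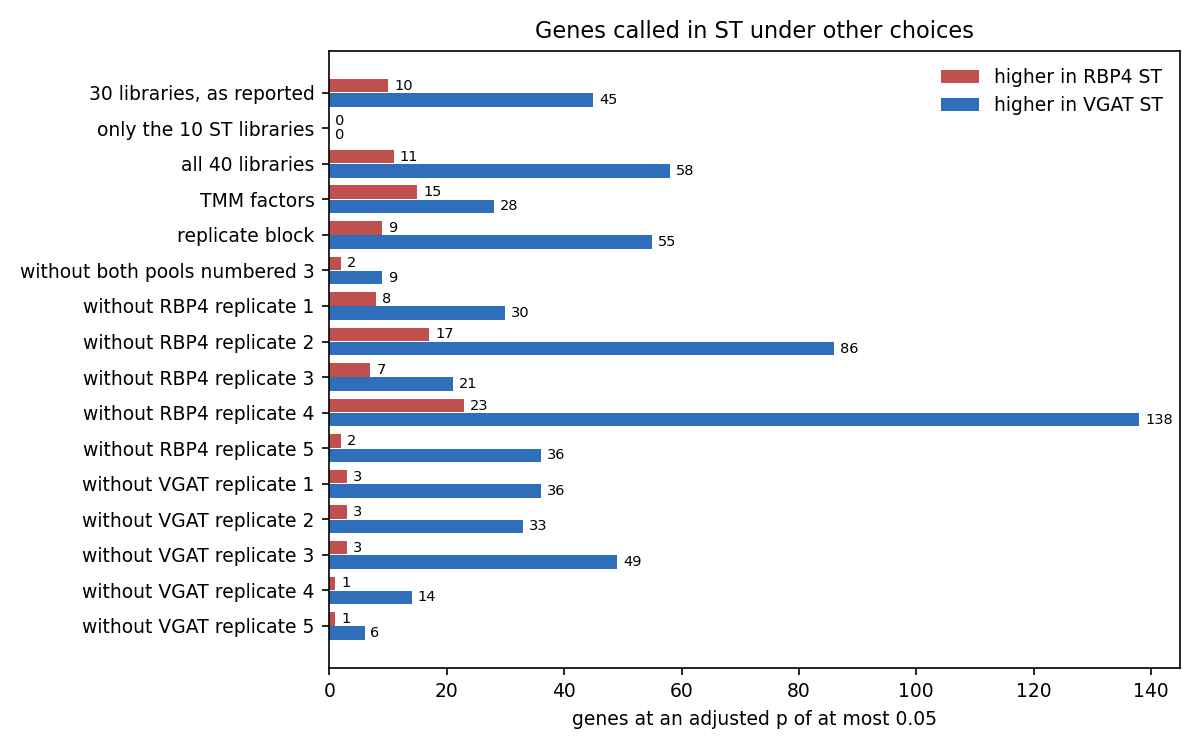
Number of genes called between RBP4 ST and VGAT ST (x axis), for genes higher in RBP4 (red) and in VGAT (blue), under the fit reported and under other choices of libraries, scaling or block (y axis). The count higher in VGAT lies between 6 and 138 when 1 pool is left out, and both counts are 0 when only the 10 ST libraries set the spread.

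Neuropeptide precursor genes were the most frequent members of the gene lists among the genes higher in VGAT ST. Of 20 listed precursors, 8 were called higher in VGAT and 0 in RBP4, where 0.266% of all genes tested were higher in VGAT. The median log2 fold change over the 20 was -0.79, against -0.085 over all genes tested. The 8 were Crh, Npy, Cort, Vip, Sst, Pnoc, Penk and Tac2. The study itself singled out Sst and Cort on these samples, so that these members are not independent evidence of the direction. The lists were chosen with earlier results of these data known. Npy and Vip here, Crhbp among the interneuron markers and Tmem232 among the layer 5 genes were named as markers. Shares of list members against all genes are thus descriptions and not independent tests of enrichment. All 8 were also called without RBP4 replicate 4, and 9 of the 20 were called by DESeq2. With only the 10 ST libraries 0 were called and 11 had an unadjusted edgeR p under 0.05. Without both pools numbered 3, 3 were called, which were Penk, Npy and Pnoc, and without VGAT replicate 5 those among the 8 were Npy, Crh and Cort.

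Npy (chromosome 6, 49822710 to 49829507) encodes neuropeptide Y, an inhibitory transmitter of interneurons. Its levels were 344, 463, 132, 172 and 326 cpm in RBP4 ST replicates 1 to 5, and 409.7, 509.7, 913, 1711 and 2248 cpm in VGAT ST. The groups overlapped, since RBP4 replicate 2 was above VGAT replicate 1. On average Npy was 287 ± 135 cpm in RBP4 and 1158 ± 796 cpm in VGAT (SD, n = 5 each), with a log2 fold change of -2.01 ± 0.33 (SE, edgeR adjusted p = 0.0027). Sst (chromosome 16, 23889581 to 23890844), the precursor of somatostatin, was 320.2, 546, 169, 161 and 239 cpm in RBP4 and 349, 409, 1142, 1429 and 2094 cpm in VGAT. VGAT replicates 3 to 5 were above all RBP4 libraries, while VGAT replicates 1 and 2 lay within their range. Its log2 fold change was -1.92 ± 0.34 (SE, edgeR adjusted p = 0.00452). Cort (chromosome 4, 149125034 to 149126763), which encodes cortistatin, a peptide related to somatostatin, separated the lines, with 6.15, 8.28, 4.13, 4.63 and 6.83 cpm in RBP4 and 8.92, 9.97, 21.3, 29.1 and 36.6 cpm in VGAT. Its log2 fold change was -1.81 ± 0.28 (SE, edgeR adjusted p = 0.00259).

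Vip (chromosome 10, 5639218 to 5647614), the precursor of vasoactive intestinal peptide and a marker of interneurons that inhibit other interneurons, was 80.8, 76.03, 50.8, 45.3 and 66.8 cpm in RBP4 ST and 83.8, 122, 168, 392 and 352 cpm in VGAT ST. No RBP4 library reached the lowest VGAT library, and the log2 fold change was -1.80 ± 0.32 (SE, edgeR adjusted p = 0.00452). Crh (chromosome 3, 19693401 to 19695396), which encodes corticotropin-releasing hormone, had 2.99, 4.56, 3.68, 2.21 and 4.197 cpm in RBP4 and 5.21, 7.37, 21.5, 21.1 and 20.3 cpm in VGAT. VGAT replicates 1 and 2 were again the lowest of their line, yet above all RBP4 libraries, and the log2 fold change was -2.09 ± 0.34 (SE, edgeR adjusted p = 0.0026). Pnoc (chromosome 14, 65400673 to 65425472), the nociceptin precursor, went from 7.43 to 21.9 cpm in RBP4 and from 22.98 to 72.1 cpm in VGAT, with a log2 fold change of -1.55 ± 0.27 (SE, edgeR adjusted p = 0.00448). Penk, the enkephalin precursor of striatal and cortical cells, was 482, 307, 110.4, 312 and 206 cpm in RBP4 and 739.6, 841, 476, 962 and 2085 cpm in VGAT, with a log2 fold change of -1.85 (edgeR adjusted p = 0.00726). RBP4 replicate 1 and VGAT replicate 3 overlapped. Tac2, the neurokinin B precursor, ranged over 7.82 to 18.8 cpm in RBP4 and 19.7 to 84.6 cpm in VGAT, a log2 fold change of -1.77 (edgeR adjusted p = 0.00726).

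The other 12 precursors did not pass. Tac1, the substance P precursor, had a log2 fold change of -1.29 (edgeR adjusted p = 0.103), Cartpt, which encodes CART peptides, -0.95 (edgeR adjusted p = 0.146), and Pdyn, the dynorphin precursor, -0.61 (edgeR adjusted p = 0.358). Cck, which both cortical pyramidal cells and interneurons make, was 470.3 and 466 cpm. Adcyap1, the precursor of PACAP, was 52.2 cpm in RBP4 ST and 25.2 cpm in VGAT ST, a log2 fold change of 1.05 (edgeR adjusted p = 0.214). In TRAP, Adcyap1 was higher in RBP4, with a log2 fold change of 4.20 (edgeR adjusted p = 8.54e-10). Scg2 and Chgb, which encode granins of dense-core vesicles in many neurons, had ST log2 fold changes of -0.49 and 0.08 (edgeR adjusted p = 0.37 and 0.93).

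**Figure D2:**
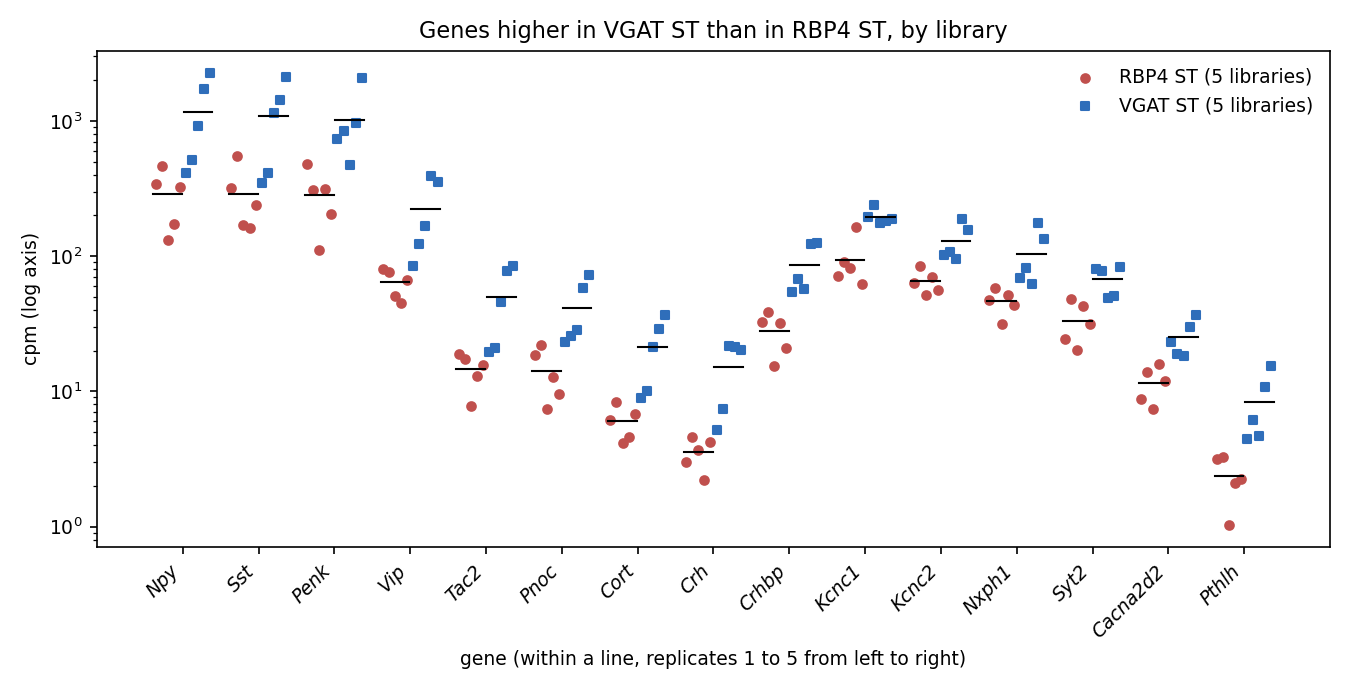
Level in cpm (log axis) of 15 genes called higher in VGAT ST (x axis), with the 5 RBP4 ST libraries as red circles, the 5 VGAT ST libraries as blue squares and group means as black lines. For Npy the RBP4 libraries lie between 132 and 463 cpm and the VGAT libraries between 409.7 and 2248 cpm, and for 7 of the 8 peptide genes the lowest VGAT libraries are replicates 1 and 2.

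The promoters of the precursor genes were read for the cAMP response element, TGACGTCA, which is its own reverse complement and through which neuropeptide genes are known to respond to activity. RefSeq promoter windows of GRCm38.p6, from 250 bases before to 50 bases after a start site, were at hand for 15 of the 20 precursors. They are shown because the precursors were the largest group of genes higher in VGAT ST. The element was found in 4 of the 15, against 2.03% of the 27025 genes with a window. These are Sst at chr16:23890874-23890903 (- strand), Scg2 at chr1:79440076-79440105 (- strand), Chgb at chr2:132781559-132781588 (+ strand) and Cartpt at chr13:99900777-99900806 (- strand), written 5′ to 3′ with the element in capitals.
Sst: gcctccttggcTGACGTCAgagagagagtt
Scg2: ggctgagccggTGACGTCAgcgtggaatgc
Chgb: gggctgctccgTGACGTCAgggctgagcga
Cartpt: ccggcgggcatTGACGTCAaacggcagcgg
Of the 5 called precursors with a window only Sst held the element, as did 3 of the 10 that were not called. A match is a description of the letters and not a shown site, and no match says only that these letters are not in the window.

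Crhbp (chromosome 13, 95431371 to 95444831), which encodes a binding protein that takes up corticotropin-releasing hormone, had the smallest p among the genes higher in VGAT ST. It was 32.3, 38.7, 15.3, 31.9 and 20.9 cpm in RBP4 and 54.7, 67.8, 57.3, 124 and 125 cpm in VGAT, with no overlap. The means were 27.8 ± 9.48 and 85.7 ± 35.6 cpm (SD, n = 5 each), and the log2 fold change was -1.62 ± 0.23 (SE, edgeR adjusted p = 0.000585). Together with Crhbp, 4 of 18 listed markers of interneuron subclasses were called higher in VGAT and 0 in RBP4. The median over the 18 was -0.75, and 11 had an unadjusted p under 0.05 towards VGAT, against 0.266% called and 8.51% under that limit over all genes tested. With only the 10 ST libraries 0 of the 18 were called in edgeR and 9 had an unadjusted p under 0.05, and without both pools numbered 3, 3 were called. The other called members were Kcnc1, Kcnc2 and Nxph1.

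Kcnc1 and Kcnc2 encode the fast potassium channel subunits Kv3.1 and Kv3.2 of fast-spiking interneurons, which sit in axon terminals. Kcnc1 (chromosome 7, 46396497 to 46438375) was 70.98, 89.7, 81.9, 163 and 61.95 cpm in RBP4 and 194, 237, 177, 182 and 187 cpm in VGAT. RBP4 replicate 4 was far above the rest of its line, and all VGAT libraries were above it. The log2 fold change was -1.06 ± 0.18 (SE, edgeR adjusted p = 0.00342), and -1.36 without RBP4 replicate 4 (edgeR adjusted p = 5.84e-06). Kcnc2 (chromosome 10, 112271123 to 112466304) was 62.7, 83.9, 51.9, 70.5 and 56.5 cpm in RBP4 and 102, 107, 94.4, 188 and 156 cpm in VGAT, with a log2 fold change of -0.99 ± 0.18 (SE, edgeR adjusted p = 0.00474). The lines did not overlap. Nxph1 (chromosome 6, 8948431 to 9249032), the secreted neurexin ligand neurexophilin 1, was 47.6, 58.5, 31.4, 51.9 and 43.2 cpm in RBP4 and 68.3, 81.7, 62.2, 176 and 133 cpm in VGAT, and its log2 fold change was -1.16 ± 0.22 (SE, edgeR adjusted p = 0.00726). Pvalb, which encodes parvalbumin, was 27.7, 34.9, 55.8, 22.8 and 159 cpm in RBP4 and 52.6, 51.5, 187, 164 and 179.7 cpm in VGAT. RBP4 replicate 5 came near the 3 high VGAT libraries, and the log2 fold change was -1.08 (edgeR adjusted p = 0.364).

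Other synaptic and secreted factors were called on the same side. Syt2, the fast calcium sensor for release in parvalbumin terminals, was 24.3, 47.8, 20.2, 43.1 and 31.3 cpm in RBP4 and 80.2, 77.7, 49.2, 50.4 and 83.7 cpm in VGAT, a log2 fold change of -1.03 ± 0.21 (SE, edgeR adjusted p = 0.0238). It was the only called gene of 29 listed for vesicle fusion. Cacna2d2, an auxiliary subunit of presynaptic calcium channels, was 8.801, 13.8, 7.43, 16.03 and 11.8 cpm in RBP4 and 23.3, 18.9, 18.1, 30.05 and 36.5 cpm in VGAT, with a log2 fold change of -1.13 ± 0.23 (SE, edgeR adjusted p = 0.0186), and was the only called gene of 18 listed sodium and calcium channel genes. Both separated the lines. Pthlh, parathyroid hormone-like peptide, was 3.16, 3.29, 1.03, 2.098 and 2.26 cpm in RBP4 and 4.43, 6.12, 4.66, 10.7 and 15.5 cpm in VGAT. Its log2 fold change was -1.79 ± 0.31 (SE, edgeR adjusted p = 0.00438). VGAT replicates 4 and 5 were far above the other VGAT libraries. Gjd2, which encodes the neuronal gap junction protein connexin 36, had a log2 fold change of -1.29 (edgeR adjusted p = 0.0265), and Cox6a2, a cytochrome oxidase subunit, -1.26 (edgeR adjusted p = 0.0265). Cox6a2 was 17.3, 13.7, 14.9, 8.45 and 15.5 cpm in RBP4 and 13.9, 14.2, 54.5, 38.3 and 46.6 cpm in VGAT, where replicates 3 to 5 stood above all RBP4 libraries.

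Genes for making and moving GABA did not pass the test in ST. Slc32a1, Gad1 and Gad2, the latter both enzymes of GABA synthesis, had log2 fold changes of -0.90, -0.75 and -0.58 (edgeR adjusted p = 0.236, 0.381 and 0.41). Abat, which breaks GABA down, was 492 cpm in RBP4 ST and 531 cpm in VGAT ST, a log2 fold change of -0.11 (edgeR adjusted p = 0.935). Of the 5 genes, 0 were called by edgeR and 1 by DESeq2, and the median was -0.75. An unadjusted edgeR p under 0.05 towards VGAT was reached by 4, as by 8.51% of all genes tested. In TRAP, edgeR called 5 of 5 higher in VGAT (15.1% of all genes tested), with a median of -4.34. The summed level of the 5 genes had a median of 1021 cpm in RBP4 ST and 1531 cpm in VGAT ST. It was 1413 and 1418 cpm in SNF, and 238.2 and 5384 cpm in TRAP.

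Among 15 transcription factors of the GABAergic lineage, edgeR called Dlx5 in ST. Dlx5 was 0.805, 1.18, 0.581, 0.915 and 0.313 cpm in RBP4 and 1.05, 1.25, 2.12, 2.01 and 3.97 cpm in VGAT, near the limit of detection in several libraries, with a log2 fold change of -1.40 ± 0.31 (SE, edgeR adjusted p = 0.0354). With TMM factors it did not pass. Dlx6os1, a long noncoding RNA from the same locus, was also called, with a log2 fold change of -1.46 (edgeR adjusted p = 0.0265). The library kit does not mark strand, so that reads from this antisense RNA and its partner cannot be told apart. Dlx1 separated the lines in ST, with 5.98 to 9.68 cpm in RBP4 and 10.02 to 14.6 cpm in VGAT, but its log2 fold change of -0.72 did not pass (edgeR adjusted p = 0.1). The median over the 15 was -0.56. In TRAP all 15 were called higher in VGAT (15.1% of all genes tested), with a median of -4.55.

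Genes of striatal projection neurons, which the forebrain dissection can include, gave 2 calls of 23 tested, both higher in VGAT ST, as were 0.266% of all genes tested. Adora2a, an adenosine receptor of the indirect pathway, was 3.22, 4.05, 0.905, 6.29 and 2.57 cpm in RBP4 and 9.36, 8.61, 5.17, 8.78 and 26 cpm in VGAT. VGAT replicate 5 stood apart and RBP4 replicate 4 overlapped VGAT replicate 3, with a log2 fold change of -1.75 ± 0.36 (SE, edgeR adjusted p = 0.0232). With TMM factors 1 of the 23, Adora2a, was called. Without both pools numbered 3 and with only the 10 ST libraries edgeR called 0, and 11 and 12 had an unadjusted p under 0.05. Drd1 and Drd2, the dopamine receptors of the direct and indirect pathway, had log2 fold changes of -1.03 and -1.32 (edgeR adjusted p = 0.121 and 0.218). The median of the list was -0.56, and 22 of its 23 members were negative, as were 10298 of all 16900 genes. For cholinergic neurons, 0 of 5 genes passed in edgeR and 0 in DESeq2. An unadjusted edgeR p under 0.05 towards VGAT was reached by 2, as by 8.51% of all genes tested. The most abundant, Slc5a7 and Slc18a3 for choline and acetylcholine transport, were 1.78 against 4.26 cpm and 1.81 against 4.002 cpm.

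Of the 45 genes higher in VGAT ST, 36 were called in the same direction in TRAP and 9 were not called there. Over all genes tested, 15.1% were called higher in VGAT in TRAP. The 9 were Scly, Lst1, 2700097O09Rik, Rpgrip1l, Capn11, BC065397, Ppcdc, Gm7420 and Cep135. Scly, selenocysteine lyase, was 3.39, 4.05, 3.36, 3.98 and 2.63 cpm in RBP4 ST and 5.15, 5.84, 6.27, 7.14 and 13.5 cpm in VGAT ST, with a log2 fold change of -1.12 ± 0.21 (SE, edgeR adjusted p = 0.00726), against -0.23 in TRAP (edgeR adjusted p = 0.424). VGAT replicate 5 held the highest level. Ppcdc, of coenzyme A synthesis, and Rpgrip1l and Cep135, of cilia and centrioles, had ST log2 fold changes of -0.88, -0.91 and -1.09 (edgeR adjusted p = 0.0284, 0.0265 and 0.046). Capn11 (chromosome 17, 45630204 to 45659325), a calpain protease that the study names, was 0, 0, 0, 0.0538 and 0.0626 cpm in RBP4 ST and 1.05, 1.53, 0.424, 1.04 and 2.46 cpm in VGAT ST. That is 2 counts against 99 in all, a VGAT to RBP4 ratio of 58.7 with a 95% exact interval of 15.8 to 491.2 that covers counting error only. Its edgeR adjusted p was 0.0265. Gsr, glutathione reductase, also named by the study, was 17.4, 15.5, 24.2, 19.6 and 25.8 cpm in RBP4 and 15.2, 15.5, 16.2, 11.8 and 13 cpm in VGAT, a log2 fold change of 0.51 ± 0.15 (SE, edgeR adjusted p = 0.153).

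The remaining genes higher in VGAT ST were mixed in kind. G protein-coupled receptors were Grpr, for gastrin-releasing peptide, Gpr83 and Gpr176, with ST log2 fold changes of -2.43, -1.19 and -0.83 (edgeR adjusted p = 0.0265, 0.029 and 0.0426). Gpr83 was 37.4, 61.9, 14.99, 58.9 and 21.5 cpm in RBP4 and 91.8, 90.5, 50.4, 98.8 and 114 cpm in VGAT, overlapping at VGAT replicate 3. Prss23, a secreted protease, was 8.97 to 21.3 cpm in RBP4 and 22.5 to 46 cpm in VGAT, with a log2 fold change of -1.28 (edgeR adjusted p = 0.0095). Tmem132c, Slc35d3, Dmkn and Hebp2 were called as well, with log2 fold changes from -1.72 to -1.25. Gpx6, a glutathione peroxidase, and Gm10451 were called at no more than 3.11 and 0.941 cpm in any ST library. Pkp4, a plakophilin of cell junctions, was 389.8, 243, 286, 439.9 and 194 cpm in RBP4 and 531, 500.3, 539, 467 and 449 cpm in VGAT, a log2 fold change of -0.68 (edgeR adjusted p = 0.0471), which was the smallest in size among the 45. Rpl3, a ribosomal protein gene, had a log2 fold change of -0.84 (edgeR adjusted p = 0.00837). Its value is uncertain, since ribosomal protein genes have many near-identical copies. Gm4737 was called higher in VGAT in all 4 fractions, with 0.115, 0, 0, 0.0538 and 0.125 cpm in RBP4 ST and 0.997, 0.963, 0.847, 0.669 and 0.794 cpm in VGAT ST, and its edgeR adjusted p was 0.0026 in ST and 0.00706 in WCH.

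Microglial genes lay on the same side in ST. Selplg, the ligand of P-selectin, and Lst1, both of leukocytes and microglia, were called, with log2 fold changes of -1.49 (edgeR adjusted p = 0.0464) and -1.38 (edgeR adjusted p = 0.0247). Of 10 listed microglia markers, 0 were called by edgeR and 0 by DESeq2, 6 had an unadjusted edgeR p under 0.05 (8.51% of all genes tested, towards VGAT), and all 10 were negative with a median of -0.75. With DESeq2, and with TMM factors in edgeR, 3 had an unadjusted p under 0.05. Their summed level was 98.2 to 409 cpm in RBP4 ST and 324 to 630 cpm in VGAT ST. It was 139 to 266 cpm in RBP4 WCH and 231 to 322 cpm in VGAT WCH, where the list's median was -0.30. In SNF the list's median was -0.40. In TRAP the sum was lower, at 17.2 to 50.4 cpm in RBP4 and 29.4 to 118.7 cpm in VGAT. There 7 of the 10 were called higher in VGAT (15.1% of all genes tested), with a median of -1.49. Cx3cr1, the fractalkine receptor, was 57.5 and 93.4 cpm in ST, and C1qb, of complement, 48.8 and 85.3 cpm. The part of microglial RNA in the ST differences was not tested.

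Genes higher in RBP4 ST were fewer in edgeR, though not in DESeq2 with 77 against 61, and most of the 10 that edgeR called also had an unadjusted p under 0.05 in the homogenate. Of the 10, 7 did so in WCH and 7 in SNF, where 1.45% and 2.72% of all genes tested were higher in RBP4 by this limit. Wdfy1 (chromosome 1, 79702262 to 79776143), an adaptor of Toll-like receptor signalling, was 31.3, 45.97, 39.5, 55.6 and 39.96 cpm in RBP4 ST and 11.5, 12.4, 11.7, 15.02 and 21.4 cpm in VGAT ST. The lines were apart, with a log2 fold change of 1.56 ± 0.21 (SE, edgeR adjusted p = 0.000325), against 1.47 in TRAP, 1.41 in SNF and 1.12 in WCH (edgeR adjusted p = 1.54e-06, 0.00323 and 0.0396). Ccl17 (chromosome 8, 94810453 to 94812035), a chemokine, was 17.1, 5.599, 6.14, 6.67 and 32.3 cpm in RBP4 and 2.49, 3.46, 1.44, 3.198 and 2.31 cpm in VGAT, and its log2 fold change was 2.38 ± 0.45 (SE, edgeR adjusted p = 0.00922) in ST and 1.98 in WCH. Cirbp (chromosome 10, 80165985 to 80172786), a cold-inducible RNA-binding protein, was 41.9, 33.4, 62.9, 48.5 and 128 cpm in RBP4 and 23.6, 25.4, 27.95, 22.6 and 27.4 cpm in VGAT, where RBP4 replicate 5 was the highest. Its log2 fold change was 1.31 ± 0.28 (SE, edgeR adjusted p = 0.0265) in ST and 1.02 in WCH. RBP4 replicate 5 held the highest level of 7 of the 10 genes.

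Tmem232 (chromosome 17, 65256005 to 65540782), a transmembrane protein gene on the layer 5 list, was 6.56, 8.61, 4.01, 4.36 and 11.8 cpm in RBP4 ST and 1.88, 3.85, 2.37, 3.27 and 2.46 cpm in VGAT ST. RBP4 replicates 3 and 4 lay just above VGAT replicate 2, and the log2 fold change was 1.35 ± 0.26 (SE, edgeR adjusted p = 0.0115). In TRAP it was 3.78 (edgeR adjusted p = 1.04e-11), and in WCH 0.39 (edgeR adjusted p = 1). Galnt16 (chromosome 12, 80518990 to 80603896), a glycosyltransferase of the Golgi apparatus, was 169.5, 240.2, 129, 143 and 285 cpm in RBP4 ST and 118, 116, 84.7, 93.4 and 105 cpm in VGAT ST, with a log2 fold change of 0.90 ± 0.21 (SE, edgeR adjusted p = 0.0435). Pde6c, a phosphodiesterase known from cone photoreceptors, Tex30 and Arl4a, a small GTPase, had log2 fold changes of 1.98, 1.401 and 0.72 (edgeR adjusted p = 0.0265, 0.0354 and 0.0464), and their lines overlapped. Tex30 was 6.21, 8.33, 11.8, 3.34 and 17.7 cpm in RBP4 and 3.65, 4.02, 2.202, 3.57 and 4.33 cpm in VGAT, where RBP4 replicate 4 lay below 4 of the 5 VGAT libraries. Slc15a1, a peptide transporter, and the long noncoding RNA 1700064M15Rik were the least abundant, at no more than 0.4602 and 0.646 cpm in any ST library of either line. Klf14, a transcription factor, separated the lines at 1.18 to 4.01 and 0.424 to 0.892 cpm but did not pass, with a log2 fold change of 1.83 (edgeR adjusted p = 0.0586). The same held for Cxadr, Dis3, Cln6 and Bcl6, with log2 fold changes of 0.68, 0.71, 0.63 and 0.50 (edgeR adjusted p = 0.143, 0.153, 0.222 and 0.153).

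**Figure D3:**
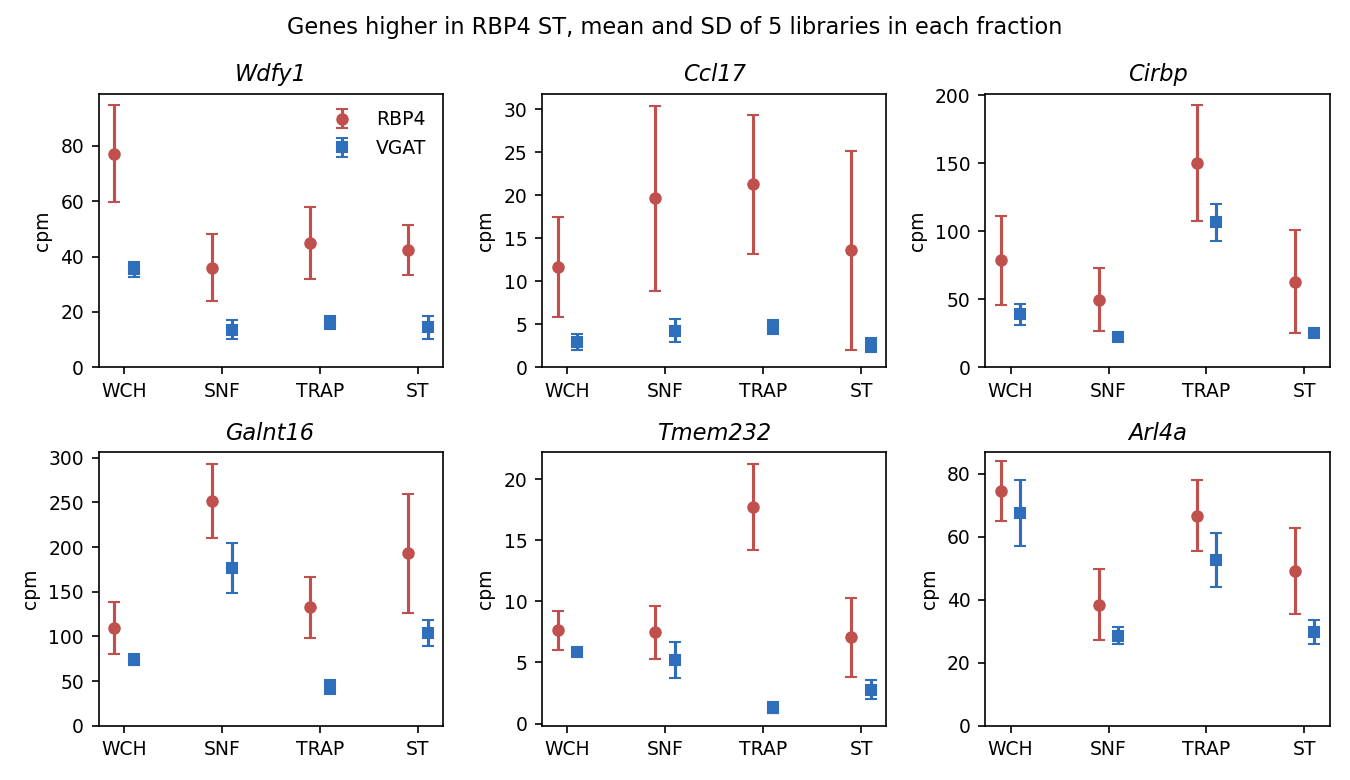
Mean level in cpm (y axis) with SD (bars) of 5 libraries for 6 genes called higher in RBP4 ST, in the 4 fractions (x axis), for RBP4 (red circles) and VGAT (blue squares). Wdfy1, Ccl17 and Cirbp have higher means in RBP4 in WCH as in ST, with 77.2 against 35.4 cpm for Wdfy1 in WCH, while Tmem232 is furthest apart in TRAP.

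Most genes that mark the pyramidal cells did not separate the lines in ST. Tmem232 was the 1 of 16 layer 5 genes that edgeR called in ST, where 0.0592% of all genes were higher in RBP4, and the median was 0.04. In TRAP, 10 of the 16 were called higher in RBP4 (12.9% of all genes) and 4 in VGAT (15.1%). Fezf2, the transcription factor that specifies subcortical projection neurons, was 22.3 and 17.1 cpm in ST, a log2 fold change of 0.38 (edgeR adjusted p = 0.707), against 4.03 in TRAP. Npr3, a natriuretic peptide receptor, separated the lines in ST without passing in edgeR, with a log2 fold change of 0.79 (edgeR adjusted p = 0.235), while DESeq2 called it higher in RBP4. Among 16 genes of glutamatergic cortical neurons, 0 were called in ST by edgeR or DESeq2 and 0 had an unadjusted edgeR p under 0.05, which 5 had in DESeq2, with a median of 0.19. In TRAP, 15 of 16 were called higher in RBP4 with a median of 2.38. Slc17a7, the vesicular glutamate transporter VGLUT1, was 550.4, 1084, 682, 885 and 1012 cpm in RBP4 ST and 688, 713, 635, 396 and 418 cpm in VGAT ST, which overlap, with a log2 fold change of 0.56 ± 0.32 (SE, edgeR adjusted p = 0.517). In TRAP its means were 552 and 58.5 cpm. Mef2c, a transcription factor of cortical neurons, was 799.8 and 709 cpm in ST.

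Transcripts known from dendrites and the postsynaptic density did not pass between the lines. Of 27 such genes, 0 were called in ST by edgeR or DESeq2 and 1 had an unadjusted edgeR p under 0.05, with a median of -0.10 that turned to 0.03 with TMM factors. Camk2a, the calcium/calmodulin-dependent kinase whose mRNA is carried into dendrites, was 4963, 2489.9, 3305, 5980.4 and 2972 cpm in RBP4 ST and 4940.2, 4433, 5078, 4883 and 4464 cpm in VGAT ST. The RBP4 libraries spread on both sides of the VGAT libraries, and the log2 fold change was -0.27 ± 0.33 (SE, edgeR adjusted p = 0.794). Shank3 (chromosome 15, 89499623 to 89560261), a scaffold of the postsynaptic density, was 85.8, 64.3, 131, 162 and 91.3 cpm in RBP4 and 139, 119, 178, 113 and 80.8 cpm in VGAT, with a log2 fold change of -0.24 ± 0.27 (SE, edgeR adjusted p = 0.779). Actb, beta-actin, was 2454 to 18747 cpm in RBP4 and 3241 to 5866 cpm in VGAT. These values do not show that the lines are alike, since a standard error of 0.27 leaves room for differences of that order.

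Receptors, other channels and guidance genes gave 0 calls in edgeR. This held for 15 ionotropic glutamate receptor genes, 12 GABA-A receptor subunits, 33 receptors for monoamines, acetylcholine, opioids and peptides, 28 potassium and HCN channel genes and 49 axon guidance genes, of which 4, 4, 2, 3 and 3 had an unadjusted p under 0.05. Over all genes tested, 11.5% were under this limit in either direction. Of the 4 GABA-A genes, 3 were towards RBP4 and 1 towards VGAT, while those of the other lists were all towards VGAT. DESeq2 called Grik1, a kainate receptor subunit, higher in VGAT and Gabra2 higher in RBP4, and 0 of the other 3 lists. The list medians lay between -0.25 and 0.10. Of the most abundant members, Gria2, the AMPA receptor subunit that limits calcium entry, had means of 873 and 849 cpm, and Grin2b, of NMDA receptors, 666 and 673 cpm in RBP4 and VGAT ST. Chrm1 and Adora1, muscarinic and adenosine receptors, had log2 fold changes of 0.22 and -0.17, Kcna1, a potassium channel, -0.24, and Epha4 and Epha5, ephrin receptors, 0.08 and 0.24, with edgeR adjusted p values from 0.436 to 0.905.

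Other cell types were present in both ST groups. The summed level of 12 oligodendrocyte markers was 32210 to 45310 cpm in RBP4 and 32970 to 55180 cpm in VGAT, and that of 10 astrocyte markers 4486 to 23580 and 5963 to 21120 cpm. The oligodendrocyte median was 34510 and 44300 cpm in RBP4 and VGAT ST, above 16220 and 17070 cpm in SNF. It was 7832 and 7783 cpm in WCH, and 978.5 and 659.9 cpm in TRAP. The astrocyte median was 8129 and 14910 cpm in ST, 11760 and 12570 cpm in SNF, and 801.8 and 349 cpm in TRAP. The share of ST RNA from cells without Cre was not tested. Mbp, of myelin, had means of 21080.2 cpm in RBP4 ST and 25446 cpm in VGAT ST, and Slc1a2 and Glul, of astrocytes, 8634 and 1101 against 8742 and 1289.6 cpm. Endothelial markers summed to 18.3 to 529.7 cpm in RBP4 and 24.6 to 347 cpm in VGAT, where RBP4 replicate 2 held the highest Slco1a4 and Flt1. Choroid plexus and blood markers had a median of -1.07, with means of 678 and 772 cpm for Ttr and 31.01 and 67.9 cpm for Hbb-bs. EdgeR and DESeq2 called 0 genes of these 4 lists. An unadjusted edgeR p under 0.05 was reached by 4 genes, all of the choroid plexus and blood list of 7 genes. These were towards VGAT, as were 8.51% of all genes tested under this limit.

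Nuclear long noncoding RNAs and sex-linked genes varied between libraries of a line. Malat1 was 898, 2035, 1302, 1982 and 3253 cpm in RBP4 ST and 1993, 2076, 681, 4199 and 8453 cpm in VGAT ST, and Snhg11 193, 262, 135, 191 and 349 and 159.9, 202, 76.1, 577 and 1581 cpm. VGAT replicates 4 and 5, which held the highest level of 35 of the 45 genes higher in VGAT ST, were also the highest of their line for both RNAs. Xist, from the inactive X chromosome of females, was 112, 0.423, 20.6, 0.215 and 0.564 cpm in RBP4 and 42.1, 47.5, 1.02, 359 and 536 cpm in VGAT, again highest in VGAT replicates 4 and 5. Ddx3y, on the Y chromosome, was 30.3, 78.7, 75.9, 67.2 and 92.3 cpm in RBP4 and 34.2, 37.1, 42.3, 42.2 and 36.2 cpm in VGAT, so that the pools differed in sex makeup. Of these lists 0 of 5 and 0 of 5 genes tested passed in edgeR and in DESeq2, and 1 and 2 had an unadjusted edgeR p under 0.05. In WCH, 4 of the 5 sex-linked genes had an unadjusted edgeR p under 0.05 towards RBP4, with a median of 0.88. The part of nuclear RNA and of sex in the ST differences was not tested.

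The same contrast in TRAP, where ribosomes were captured from whole homogenate, called 2183 genes (12.9%) higher in RBP4 and 2548 (15.1%) higher in VGAT. Of the genes called in ST, 36 of 45 and 7 of 10 were called in the same direction in TRAP, and 0 in the opposite one. Whether a line difference was of another size in ST than in TRAP was tested as an interaction, which edgeR called for 1825 genes (10.8%), 848 (5.02%) with a value above 0 and 977 (5.78%) below. That fit, and every count by it, does not use the pool that ST and TRAP libraries share. Deviations of ST and TRAP libraries of the same pool from their group means correlated with a mean of -0.0096 in RBP4 and 0.0611 in VGAT. Among the 45 genes higher in VGAT ST, 29 had a smaller difference in ST than in TRAP by the interaction test, and 4 a larger one. For the 36 called in both, the median log2 fold change was -1.52 in ST and -4.16 in TRAP. Vip differed by -1.80 in ST and -5.87 in TRAP (interaction 4.06, standard error 0.45, edgeR adjusted p = 2.05e-07), and Cort by -1.81 and -3.74 (interaction 1.93, edgeR adjusted p = 0.001).

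**Figure D4:**
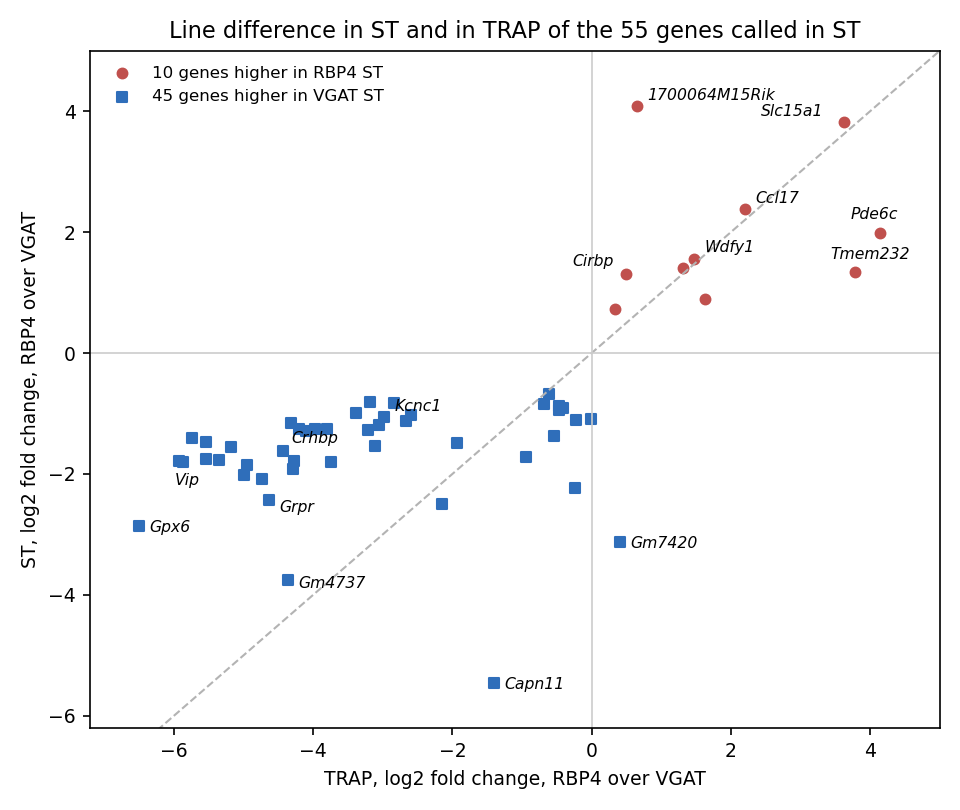
Log2 fold change of RBP4 over VGAT in TRAP (x axis) and in ST (y axis) for the 55 genes called in ST, with genes higher in RBP4 as red circles and in VGAT as blue squares. The dashed line marks equal differences, and 29 of the 45 genes higher in VGAT lie above it with an interaction that passed, while Wdfy1 and Ccl17 lie close to it. Fitted values of genes with 0 to 3 counts in a line, such as Capn11, depend on the prior count and are no bounds.

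The interactions with the smallest p were those of genes whose line difference was large in TRAP. Dlx1 was 2.55 and 97.3 cpm in RBP4 and VGAT TRAP, and 7.56 and 12.5 cpm in ST (interaction 4.53, standard error 0.27, edgeR adjusted p = 1.32e-12). Pcp4l1, a relative of the Purkinje cell protein Pcp4, was 27.1 and 793 cpm in TRAP and 49.8 and 78.01 cpm in ST (interaction 4.22, edgeR adjusted p = 1.94e-12), and Sp9, a transcription factor of GABAergic progenitors, 1.296 and 42.9 against 5.34 and 7.23 cpm. On the side of RBP4, the layer 5 factor Etv1 was 133 and 29.1 cpm in TRAP, and 47.1 ± 12.8 and 47.04 ± 5.39 cpm in ST (SD, n = 5 each). Its interaction was -2.18 (standard error 0.22, edgeR adjusted p = 3.53e-08), and those of Dtx4, a Notch pathway ligase, and 2600014E21Rik were -1.73 and -2.95. By list, the interaction was called towards a smaller VGAT excess in ST for 14 of 15 lineage factors, 5 of 5 genes of GABA synthesis and transport and 21 of 23 striatal genes. It was called towards a smaller RBP4 excess for 12 of 16 glutamatergic genes. Over all genes tested, 5.02% were called in the former direction and 5.78% in the latter.

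**Figure D5:**
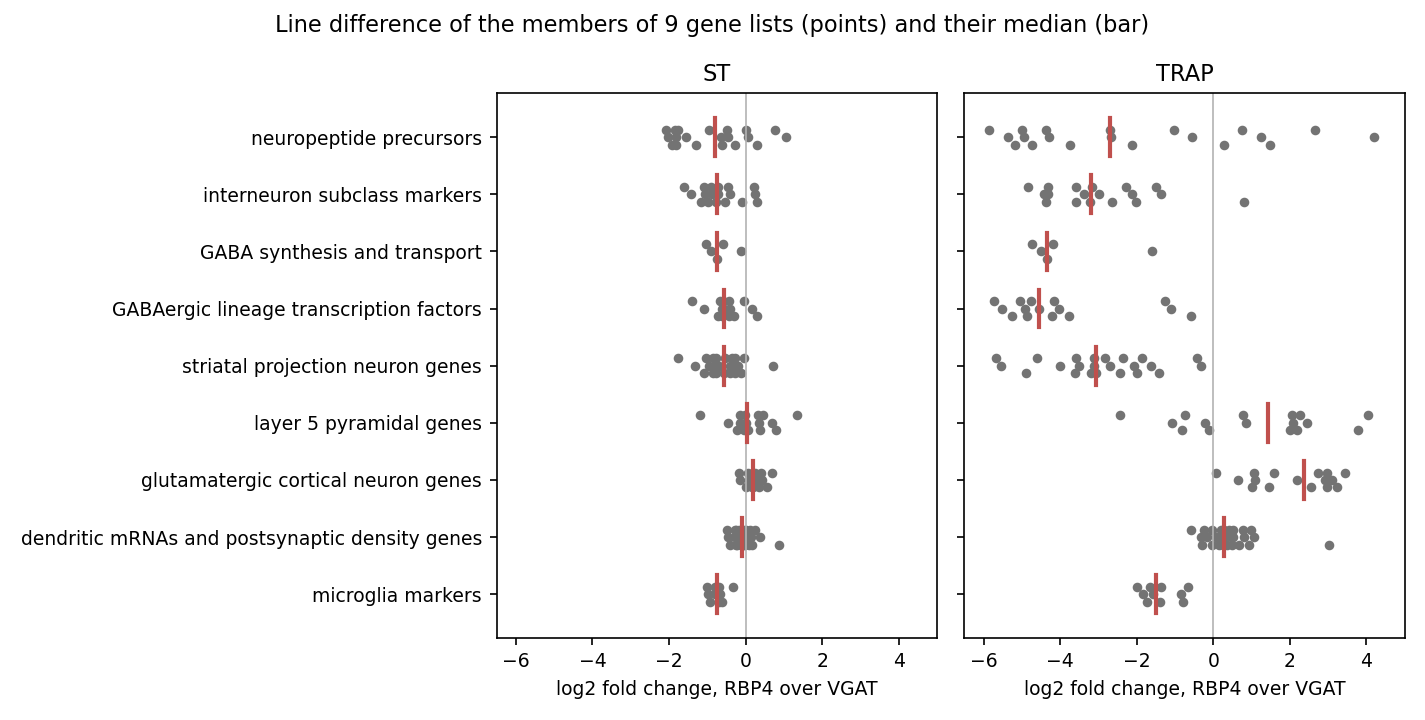
Log2 fold change of RBP4 over VGAT (x axis) in ST (left) and TRAP (right) for the members (grey points) of 9 gene lists (y axis), with the list median as a red bar. The median of the neuropeptide precursors is -0.79 in ST and -2.69 in TRAP, and that of the glutamatergic genes 0.19 and 2.38.

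The untagged SNF, from which ST was captured, gave few calls between the lines, with 1 gene higher in RBP4 (0.00592%) and 2 in VGAT (0.0118%). In WCH, 1 gene was called on each side (0.00592% each), Wdfy1 and Gm4737. Whether the line difference in ST differed from that in SNF was tested as an interaction, for which edgeR called 0 genes, also with TMM factors, and 450 (2.66%) had an unadjusted p under 0.05. That fit does not use the pool that ST and SNF libraries share. With the pool as a block edgeR again called 0 genes, and 675 had an unadjusted p under 0.05. For Crhbp, the log2 fold change was -0.18 in SNF and -1.62 in ST (interaction -1.44, standard error 0.31, edgeR adjusted p = 0.204). Npy was 596 ± 204 and 746 ± 145 cpm in SNF (SD, n = 5 each), and its interaction was -1.69 (edgeR adjusted p = 0.757). The deviations of ST and SNF libraries of the same pool correlated with a mean of 0.392 in RBP4 and 0.474 in VGAT, as a description over 5 pools each. The means for different pools, -0.0973 and -0.116, are no independent control. Deviations from a mean of 5 libraries sum to 0, which ties these values to those of the same pool.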

How the data were processed

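RNA-seq libraries of WCH, TRAP, SNF and ST from the RBP4-TRAP and VGAT-TRAP lines were analysed, 5 pools per line. Replicates were pools of different animals. The main fit shares its spread across fractions and treats libraries of the same pool as independent. Its ST p-values therefore do not measure the spread between ST pools alone. The fit of only the 10 ST libraries does so, and 0 genes passed in it. The authors aligned single reads with STAR 2.0.4b and counted uniquely aligned reads with featureCounts 1.4.5, as the submitters' processing notes name them, and the counts were deposited as whole numbers per gene and library. Deposited CPM values hold mitochondrial genes in the library total, and deposited RPKM values divide them by gene length. Both were used only to check the counts. The library kit primes at the 3′ end.

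Positions are those of the files, which overlap a GENCODE M21 gene (GRCm38) of the same identifier for 40281 of 41388 genes. From the counts, 37 genes on the mitochondrial chromosome were left out, and the remaining totals were the library sizes, without a further factor. A gene was kept if 3 or more of the 20 TRAP and ST libraries reached 0.5 cpm. The quasi-likelihood functions of edgeR 4.0.16 (R 4.3.3) were applied to the group means of the 30 WCH, TRAP and ST libraries, and of all 40 libraries for SNF, with Benjamini-Hochberg adjustment over the 16900 genes tested. A gene was called at an adjusted p of at most 0.05. The standard error is the log2 fold change divided by the root of the F statistic. Steps were tested on simulated data. Alternatives were TMM and DESeq2 size factors, DESeq2 1.42.0, the likelihood ratio test, other filters, other libraries, the replicate number as a block and each pool left out.

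Genes and lists were chosen with earlier results of these data known. Named were Crhbp, Npy, Vip and Tmem232, 6 genes the study names, and the 10 genes per direction with the smallest p in ST among those that separated the lines at a mean of at least 1 cpm. Named too were 3 genes per direction with the smallest interaction p, and up to 4 called members of each list, or its 2 most abundant members where none was called. The remaining called genes, and uncalled list members given for comparison, were added after their values were seen. Equal replicate numbers do not pair pools of the lines. Deviations of same-numbered ST libraries of the lines correlated with a mean of 0.0446 (-0.479 to 0.539). The mean for different numbers, -0.0104, is tied to this value, since deviations within a group sum to 0. Within a line a number marks 1 pool. Some named members are not reported here.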

Additional observations from a re-analysis of the deposited data

Results flagged for a closer look

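Over the named genes, 124 groups of 5 ST libraries were searched for a library far from the rest, and 11 had one. The limit used is passed by about 1 in 20 groups of independent, normally distributed values. The values here were searched without a log, and genes of the same library are not independent. That rate therefore does not apply, and the 11 are a description only. In RBP4, replicate 5 was high for Dis3 (16.7 cpm, others 7.69 to 9.46) and Cln6 (31.4 cpm, others 17.8 to 19.7), and replicate 4 for Kcnc1 (162.8 cpm, others 61.9 to 89.7). Replicate 2 was high for the endothelial genes Slco1a4 (157.7 cpm) and Flt1 (113.4 cpm), and replicate 1 was high for Xist (112.1 cpm) and low for Kcna1 (299.5 cpm). In VGAT, replicate 2 was high for Kcnc1 (237.3 cpm), replicate 5 for Adora2a (26.0 cpm, others 5.17 to 9.36) and replicate 4 for Mef2c (960.7 cpm). The mitochondrial share of VGAT ST replicate 3 was 18.97%, against 2.80% to 5.71% in the others.

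Between fractions, edgeR's interaction passed for 848 genes above 0 and 977 below, or 10.8% of all genes tested. It passed for 31 of 61 genes named by rule. Part of these were named for a small interaction p or a small ST p in these same data. Their share is thus a description and no test. Values are ST less TRAP differences on the log2 scale. For peptide genes they were 2.97 (Npy), 4.06 (Vip), 2.37 (Sst), 1.93 (Cort), 2.65 (Crh) and 3.62 (Pnoc). For other genes higher in VGAT ST they were 2.81 (Crhbp), 1.92 (Kcnc1), 2.39 (Kcnc2), 3.16 (Nxph1), 4.14 (Pthlh), 1.56 (Syt2), 1.54 (Cacna2d2), 4.34 (Dlx5) and 3.79 (Adora2a). Genes that were higher in VGAT TRAP without passing in ST had 4.53 (Dlx1), 4.22 (Pcp4l1), 4.62 (Sp9), 1.499 (Abat), 2.29 (Slc5a7), 3.31 (Slc18a3) and 0.69 (Kcna1). On the side of RBP4 the values were -2.43 (Tmem232), -0.64 (Bcl6), -2.18 (Etv1), -1.73 (Dtx4), -2.95 (2600014E21Rik), -0.91 (Mef2c), -2.68 (Slc17a7), -1.11 (Adora1) and -1.20 (Epha4).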

How the results depend on the processing

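In ST, 10 genes were higher in RBP4 and 45 in VGAT. TMM and DESeq2's size factors in edgeR gave 28 higher in VGAT, DESeq2 gave 77 higher in RBP4, and the likelihood ratio test gave 19 and 120. With only the 10 ST libraries there were 0 and 0, also with the replicate block, and at most 1 without 1 of these libraries. An unadjusted p gave 499 and 1438, and leaving out both pools numbered 3 (chosen after seeing the data) gave 2 and 9. Leaving out each pool gave 1 to 23 and 6 to 138. The ST less TRAP interaction was 1709 and 2311 by unadjusted p, 609 to 1051 and 651 to 1212 without 1 pool. Without 1 pool, TRAP calls were 3853 to 4839, SNF calls 1 to 17, WCH calls 0 to 3 and ST less SNF calls 0 to 0. None of the 55 called genes turned direction in the 11 alternatives that kept all pools, where they were tested. These alternatives refit the same ST counts that made the calls, so that a kept direction is no independent support.

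With the replicate number as a block, which does not pair the lines, 9 and 55 genes were called in ST and 49 of the 55 were among them. The cause of these changes was not tested. Fewer libraries did not always give fewer calls, with 161 genes called without RBP4 replicate 4 and 7 without VGAT replicate 5. Rare transcripts are limited by 0.0470 to 0.0847 cpm for 1 count.

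Signs of uncalled genes near 0 turned. TMM gave 0.11 (Grin2b) and 0.088 (Slc1a2). DESeq2's factors, in edgeR and in DESeq2, gave 0.12 and 0.10 for these, and 0.0023 and 0.0024 for Abat. Ttr was 0.067 without both pools numbered 3, and Gria2 -0.073 with only ST libraries and the block. Without 1 pool, values ran from -0.43 to 0.094 (Abat), -0.0054 to 0.31 (Mef2c), -0.26 to 0.24 (Gria2), -0.17 to 0.13 (Grin2b), -0.12 to 0.22 (Epha4), -0.42 to 0.26 (Slc1a2), -0.89 to 1.36 (Slco1a4), -1.30 to 1.18 (Flt1) and -0.59 to 0.015 (Ttr).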
